A study of Mus musculus with 16 samples.

Results

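The change with Vdr genotype that microglia/macrophages showed after both MCAO and sham surgery is described here across all genes. A gene counted as moved in both surgeries when the mean of the MCAO and sham genotype changes passed an adjusted p of 0.05, both changes had the same sign, and each had an unadjusted p under 0.05 in the same fit. By this definition 182 of the 17335 genes tested moved in both, 121 of them higher and 61 lower in Vdr-cKO than in control libraries. The table of counts held 32166 genes. RNA was sequenced from cells of the mouse brain 3 days after transient occlusion of the middle cerebral artery (MCAO), a model of ischemic stroke, or after a sham procedure. There were 16 libraries in 4 groups, of which 4 were MCAO control, 4 MCAO Vdr-cKO, 5 sham control and 3 sham Vdr-cKO. The question of this comparison was what loss of the vitamin D receptor in these cells changed whether or not the brain had been ischemic.

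Control mice were Vdrf/f, with both Vdr alleles floxed and no Cre. Vdr-cKO mice were Vdrf/f and Cx3cr1CreER/+, so that a tamoxifen-dependent Cre replaced 1 copy of Cx3cr1. The methods state that tamoxifen was given to the mice before MCAO and that the mice were male. The labels give C57BL/6 mice of 10 to 12 weeks for all 4 groups. Since control mice lacked the Cre, the loss of Vdr, the presence of CreER and the loss of 1 Cx3cr1 copy cannot be told apart in any comparison of the genotypes. The sources do not say whether 1 library was 1 mouse, and p-values then measure only the spread between these libraries. How the cells and RNA were prepared is described in more than 1 way, since the labels speak of CD11b+CD45int sorting with rRNA depletion and the methods of microbeads against CD11b with poly-A selection, and this difference was not resolved.

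The vitamin D receptor is a nuclear receptor that pairs with retinoid X receptors and binds direct repeats in DNA once its hormone is bound. In macrophages and microglia it is known for restraint of inflammatory genes. Several of the genes below belong to the p53 program, in which the transcription factor p53 responds to DNA damage and other stress by inducing genes of cell cycle arrest, apoptosis and repair. Others belong to the interferon program, in which secreted interferons act through STAT and IRF factors on antiviral genes and on antigen presentation by MHC class I.

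Libraries held between 13795946 and 17836796 counts. Levels are given in CPM, counts scaled to a common library size with TMM factors over all libraries, and compare a gene between samples, not 1 gene with another. The microglial markers P2ry12, Tmem119, Sall1 and Siglech had mean levels above 500 CPM in each of the 4 groups. The T cell marker Cd3e and the neuronal marker Rbfox3 stayed under 1.1 CPM in each group mean. The neuronal markers Snap25 and Syt1 reached group means of 2.57 CPM in sham control and 1.52 CPM in sham Vdr-cKO. Neutrophil markers were present, with group means of 143 to 231 CPM for S100a8 and 191 to 270 CPM for S100a9. Among 11 sums of markers of other cell types, those of T and NK cells ran from 3.7 to 7.32 CPM in MCAO control and 7.61 to 29.6 CPM in MCAO Vdr-cKO, and those of dendritic cells from 1131 to 1332 and 1450.4 to 1647 CPM. Astrocyte markers ran from 155 to 524 and 124 to 145 CPM after MCAO and from 185 to 242 and 548 to 767 CPM after sham, with Slc1a3 holding most of this sum. The genotypes did not overlap in these 4 comparisons (2-sided exact permutation p = 0.0286 after MCAO and 0.0179 after sham, the smallest possible, or 0.105 and 0.196 adjusted over the 11 sums). Their part in the genotype results was not tested. Monocyte markers were not absent, since Ccr2 averaged 158 ± 37.5 CPM in MCAO controls and 240.3 ± 93.1 CPM in the Vdr-cKO libraries after MCAO (SD, n = 4 each). Vdr itself gave 1 to 119 counts a library, and its log2 fold change with genotype was 0.43 (adjusted p = 0.727, edgeR). Counts over a whole gene do not measure the deletion of exons, so they do not check the labels of genotype. The mitochondrial share of counts was 1.75 to 2.19% in MCAO control against 1.14 to 1.54% in MCAO Vdr-cKO libraries (2-sided exact permutation p = 0.0286). It was 1.08 to 2.13% in sham control and 1.45 to 2.23% in sham Vdr-cKO libraries, which overlapped (2-sided exact permutation p = 0.232). Sham control replicates 2, 4 and 5 stood apart from replicates 1 and 3 on the third principal component, and MCAO Vdr-cKO replicates 1 and 2 had the highest Ly6c2 and Ccr2 of all libraries. In the deposited table the names of the 5 sham control columns end in a suffix that those of no other group carry. Whether these libraries were processed separately is not given in the sources used here, and such a difference cannot be told apart from the genotype difference after sham.

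The mean contrast called 471 genes higher, 2.72% of those tested, and 152 lower, 0.877% (edgeR's quasi-likelihood test, Benjamini-Hochberg adjusted p under 0.05), 3.59% together. After MCAO alone 571 genes were higher, 3.29%, and 309 lower, 1.78%, and after sham alone 147 higher, 0.848%, and 13 lower, 0.075%. Of the 471, 121 moved in both surgeries, 213 had an unadjusted p under 0.05 after MCAO alone, 43 after sham alone, and 94 had changes of opposite sign. Of the 152 lower genes, 61 moved in both, 71 had such a p after MCAO alone, 9 after sham alone, and 11 had opposite signs. The genes moved in both were thus 0.698% of the genes tested on the higher side and 0.352% on the lower side, 1.05% together. Their sharing of sign is part of the definition and is no finding.

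Across all 17335 genes the MCAO and sham changes had a Pearson's r of 0.0756 and a Spearman's rho of 0.0808, given as a description since genes are not independent. Both changes had the same sign in 51.6% of genes. An unadjusted p under 0.05 in both surgeries was found with the same sign for 232 genes, 1.34%, and with opposite signs for 133 genes, 0.767%. Vdr-cKO and control libraries did not overlap in either surgery for 94 genes higher in both, 0.542%, for 42 genes lower in both, 0.242%, or 0.785% together, and for 52 genes with opposite directions, 0.3%. The surgeries share no libraries, only the estimate of spread.

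Among the 121 higher genes the mean log2 fold change ran from 0.22 to 3.35 with a median of 0.66, and 31 lay above 1. Among the 61 lower genes the fall ran from 0.17 to 2.04 with a median of 0.39, and 3 fell by more than 1. The fall of 2.04 belongs to Mt2, which is rare. In 82 of the higher and 39 of the lower genes the change after MCAO was the larger, and it differed from that after sham in the test of the difference itself for 15 and 1 genes (442 of all genes, 2.55%). Protein-coding genes made up 111 of the higher and 56 of the lower genes. Just inside the definition were AW112010, Psme1 and Commd3, whose larger surgery p ran from 0.0435 to 0.0472. Just outside were Bst2, Dgki and Fndc10, at 0.0526 to 0.0529. On the lower side Kbtbd2, Elmod2 and Cad lay just inside with 0.0479 to 0.0498, and Gm30329, Atg16l2 and Tnks2 just outside with 0.0563 to 0.0597. The mean contrast itself had Bnip5, Foxm1 and Il12rb1 just inside and Tapbp, Slc19a2 and Gpr31b just outside its threshold on the higher side, and Gpam, Slc26a11 and Trf inside and Tmem39a, Gm49204 and Dab2 outside on the lower side.

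The number of genes moved in both depended on single libraries. Leaving out replicate 1 or replicate 2 of sham Vdr-cKO gave 60 higher genes in each case, with 40 and 29 lower, and leaving out replicate 1 of sham control gave 219 higher. For the mean contrast these sham Vdr-cKO replicates gave 287 and 289 higher and 95 and 78 lower genes, and MCAO control replicates 3 and 4 gave 95 and 90 lower. The 61 lower genes moved in both became 38 without MCAO control replicate 2 or 4 and to 37 without sham control replicate 4. Without sham control replicates 2, 4 and 5, 51 of the 121 and 16 of the 61 genes were found again.

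**Figure D1:**
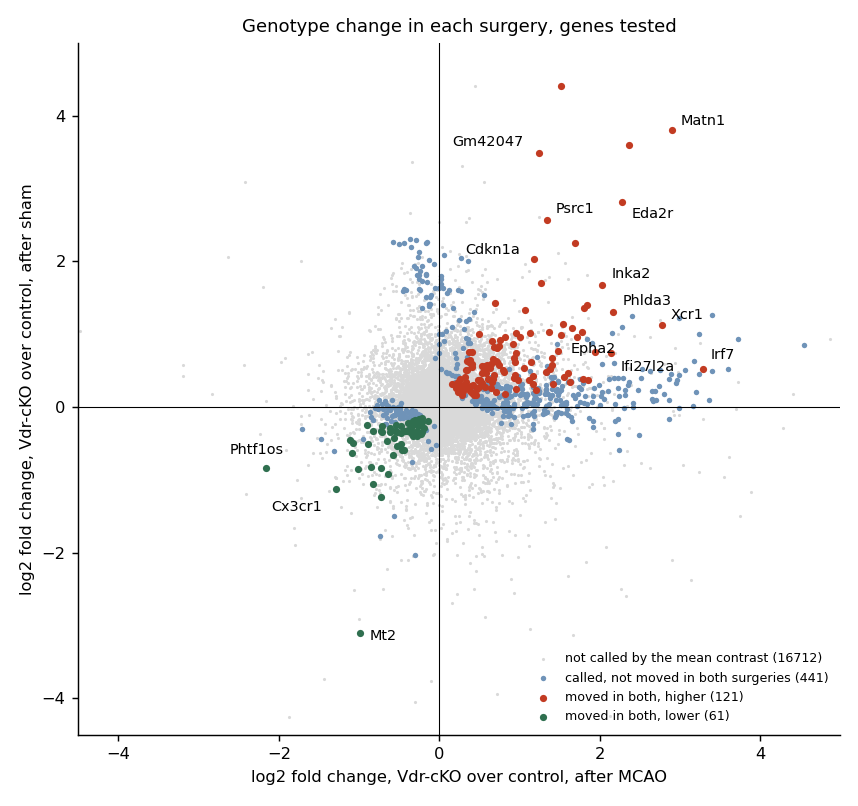
Log2 fold change of Vdr-cKO over control after MCAO (x axis) against that after sham surgery (y axis), 1 point per gene tested, with red and green for the 121 higher and 61 lower genes moved in both surgeries and blue for other genes called by the mean contrast. The red points lie to the upper right and the green points to the lower left of the origin, as the definition requires, with Matn1 far out on both axes and Irf7 far out on the MCAO axis, while most blue points lie close to 1 of the axes. Outside the axes lie 7 genes, 0 of them moved in both.

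Only 5 genes passed when the larger of the MCAO and sham p-values was adjusted over all genes, a stricter call. They were Matn1, Inka2, Epha2 and Mmp2 on the higher side, 0.0231% of genes, and Cx3cr1 on the lower side, 0.00577%, or 0.0288% together. When the p-values of each surgery were adjusted separately, 16 of the 121 higher and 2 of the 61 lower genes passed in both. Matn1 encodes matrilin-1, a protein of the cartilage matrix. Inka2 encodes an inhibitor of the kinase PAK4, Epha2 a receptor tyrosine kinase for ephrin-A ligands, and Mmp2 the gelatinase that degrades basement membrane collagen. All 4 higher genes separated the genotypes completely in both surgeries, as 0.542% of all genes tested did on the higher side.

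Matn1 (ENSMUSG00000040533, chromosome 4, 130944385 to 130955475 of GRCm38) stood at 1.45, 0.651, 0.704 and 0.596 CPM in MCAO control replicates 1 to 4 and at 3.84, 7.17, 7.06 and 7.48 CPM in MCAO Vdr-cKO replicates 1 to 4. After sham its level was 0.299, 0.178, 0.263, 0.360 and 0.0636 CPM in control replicates 1 to 5 and 5.26, 3.17 and 1.67 CPM in Vdr-cKO replicates 1 to 3. Control and Vdr-cKO libraries were fully apart, although the gene was rare, with 1 to 22 counts in control and 28 to 119 counts in Vdr-cKO libraries. The mean log2 fold change was 3.35 ± 0.30 (SE, adjusted p = 3.55e-06, edgeR), from 2.90 after MCAO and 3.80 after sham. No other gene moved in both had a larger mean change.

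Inka2 (ENSMUSG00000048458, chromosome 3, 105704599 to 105720842) was found at 2.38, 2.47, 2.96 and 1.66 CPM in MCAO control and 7.06, 8.65, 11.3 and 11.7 CPM in MCAO Vdr-cKO libraries. In the sham groups it was 2.81, 2.62, 2.37, 3.24 and 3.31 CPM in control and 9.03, 11.3 and 7.09 CPM in Vdr-cKO libraries. The level in control libraries was thus much the same after both surgeries, and so was that in Vdr-cKO libraries. Its mean log2 fold change was 1.85 ± 0.15 (SE, adjusted p = 1.94e-06, edgeR).

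Epha2 rose from 26.4 ± 4.01 (SD, n = 4) to 75.7 ± 17.2 CPM (SD, n = 4) after MCAO and from 43 ± 6.95 (SD, n = 5) to 85.4 ± 9.27 CPM (SD, n = 3) after sham, a mean log2 fold change of 1.26 ± 0.11 (SE, adjusted p = 3.55e-06, edgeR). Mmp2 had 4 MCAO control libraries between 61.3 and 62.5 CPM, and Vdr-cKO libraries at 96.3, 107, 134 and 136 CPM. After sham Mmp2 was 54.2, 41.7, 49.5, 48.8 and 48 CPM in control and 77.7, 79.8 and 73.4 CPM in Vdr-cKO libraries. Its mean log2 fold change was 0.80 ± 0.072 (SE, adjusted p = 3.84e-06, edgeR). The 4 higher calls became 2 when sham control replicate 5 or any 1 sham Vdr-cKO library was left out, and 1 with sham control replicates 2, 4 and 5 left out. The single lower call was lost when replicate 5 of sham control, replicate 1 of sham Vdr-cKO, sham control replicates 2, 4 and 5, or MCAO Vdr-cKO replicates 1 and 2 were left out.

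Many genes of the p53 program rose in both surgeries. Of 26 p53 targets tested, 15 were called higher by the mean contrast and 0 lower, and 11 moved in both surgeries. Over all genes 2.72% were called higher, 0.877% lower, and 0.698% moved in both on the higher side. The median log2 fold change of the 26 was 0.45 for the mean, 0.41 after MCAO and 0.39 after sham, where the medians over all genes were 0.02, 0.02 and 0.02. The 11 were Cdkn1a, which halts the cell cycle by inhibiting cyclin-dependent kinases, Phlda3, a repressor of Akt, Psrc1, a microtubule-associated protein, Eda2r, a death receptor of the TNF family, Bax, which opens the mitochondrial outer membrane in apoptosis, Ccng1, Sesn2, Trp53inp1, Rps27l, Ephx1 and Dglucy. For 0 of the 26 did the change differ between the surgeries by the test of the difference, where it did for 2.55% of all genes.

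Cdkn1a (ENSMUSG00000023067, chromosome 17, 29090976 to 29100727) measured 174, 116, 147 and 132 CPM in MCAO control and 383, 326, 295 and 282 CPM in MCAO Vdr-cKO libraries. After sham the values were 37.2, 21.9, 27.4, 15.1 and 21.3 CPM in control and 98.1, 126 and 76.3 CPM in Vdr-cKO libraries. The genotypes did not overlap in either surgery, and sham Vdr-cKO replicate 2 reached the range of the MCAO control libraries. The mean log2 fold change was 1.60 ± 0.15 (SE, adjusted p = 4.14e-06, edgeR), with 1.18 after MCAO and 2.03 after sham.

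Phlda3 was 1.65, 2.6, 2.53 and 2.19 CPM in MCAO control and 7.54, 8.07, 12 and 12.7 CPM in MCAO Vdr-cKO libraries. In sham libraries Phlda3 was 4.9, 1.9, 2.5, 2.1 and 1.91 CPM in control and 7.3, 5.75 and 6.74 CPM in Vdr-cKO, with control replicate 1 nearest to the Vdr-cKO values. Its mean log2 fold change was 1.74 ± 0.20 (SE, adjusted p = 3.29e-05, edgeR). Psrc1 went from 10.6, 3.9, 7.11 and 3.31 CPM in MCAO control to 12.6, 14.4, 16.7 and 19.4 CPM in MCAO Vdr-cKO. The sham values of Psrc1 were 0.299, 0.297, 0.724, 0.480 and 0.827 CPM in control and 3.46, 3.81 and 2.09 CPM in Vdr-cKO libraries. The genotypes again did not overlap in either surgery, and the mean log2 fold change of Psrc1 was 1.95 ± 0.26 (SE, adjusted p = 1.22e-04, edgeR).

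Eda2r was rare, at 0.0661, 0.325, 0.0704 and 0.0662 CPM in MCAO control and 0.419, 0.769, 0.712 and 0.802 CPM in MCAO Vdr-cKO libraries. After sham it reached 1.36, 1.53 and 0.894 CPM in Vdr-cKO against 0.299, 0.119, 0.132, 0.240 and 0.0636 CPM in control libraries. Its mean log2 fold change was 2.55 ± 0.36 (SE, adjusted p = 2.69e-04, edgeR). The remaining 7 changed less, from 0.30 for Dglucy, a D-glutamate cyclase, to 0.67 for Ephx1, an epoxide hydrolase. Bax rose by 0.65 after MCAO and 0.35 after sham, Ccng1 by 0.34 and 0.51, and Rps27l by 0.35 and 0.63, all as log2 fold changes. The libraries of the genotypes did not overlap in either surgery for 7 of the 11, and for 62 of all 121 genes that moved in both on the higher side. Of all genes tested, 0.542% did so on this side, and the 121 were picked for differing in these same libraries.

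Of the 4 other targets called by the mean contrast, Bbc3, Aen and Tnfrsf10b had an unadjusted p above 0.05 after sham and Gtse1 after MCAO. Mdm2, the ubiquitin ligase that degrades p53, had a log2 fold change of 0.27 (adjusted p = 0.0953, edgeR), and Trp53, which encodes p53 itself, 0.01 (adjusted p = 0.945, edgeR). Protein levels and the activity of p53 were not measured in these data. The count of 11 ran from 8 to 13 over the alternatives applied to lists, and was 11 without sham control replicates 2, 4 and 5 and 12 without MCAO Vdr-cKO replicates 1 and 2. A log2 fold change above 1 was not among these alternatives. Only Cdkn1a, Phlda3, Psrc1 and Eda2r of the 11 exceeded it. The list was chosen with earlier results of these data known.

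The promoters of genes moved in both were searched for letters that they might share. RefSeq windows on GRCm38.p6 run from 250 bases before to 50 after each start, and a p53 half-site of 10 bases was searched on both strands, a motif added after the values were seen. It occurred in 45% of the 20 p53 targets with a window, in 17.8% of the 90 higher and 18.4% of the 49 lower genes moved in both that have one, and in 8.65% of all 11833 genes with one. The whole window of Cdkn1a holds the motif at 2 places. The capitals below mark the half-site, in the window of Cdkn1a (chr17:29090729-29091028, plus strand), then with its flanks in those of Inka2 (chr3:105705208-105705507, plus strand), Ccng1 (chr11:40755237-40755536, minus strand), Bax (chr7:45466849-45467148, minus strand), Rps27l (chr9:66946163-66946462, plus strand), where the first of 2 matches is shown, and D630023F18Rik (chr1:65123165-65123464, minus strand).
Cdkn1a: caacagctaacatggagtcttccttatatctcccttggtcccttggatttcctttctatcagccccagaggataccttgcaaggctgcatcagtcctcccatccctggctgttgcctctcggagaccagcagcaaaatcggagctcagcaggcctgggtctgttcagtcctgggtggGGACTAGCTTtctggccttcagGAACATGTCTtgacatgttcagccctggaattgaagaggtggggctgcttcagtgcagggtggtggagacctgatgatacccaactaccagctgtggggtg
Inka2: ctgtctgcccGGGCTTGTCTgccagcaggg
Ccng1: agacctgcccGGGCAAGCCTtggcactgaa
Bax: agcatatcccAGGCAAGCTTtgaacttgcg
Rps27l: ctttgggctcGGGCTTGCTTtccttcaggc
D630023F18Rik: acaaggttcaGGGCTAGCCTccagatcact
A match of these letters describes the window and is not a measured binding site, and known p53 sites can lie outside such windows.

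**Figure D2:**
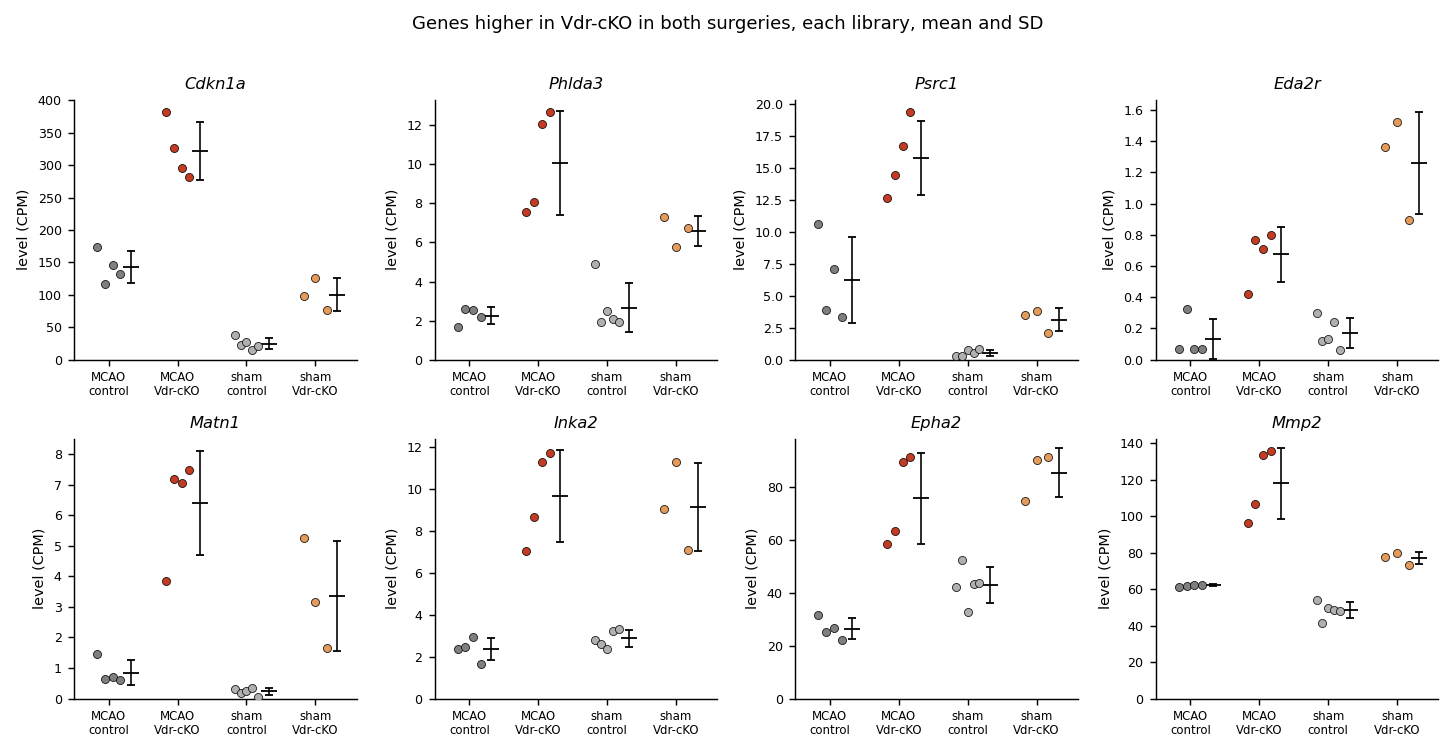
Level in CPM (y axis, from 0) of 4 p53 targets (top) and the 4 higher genes whose larger surgery p passed after adjustment (bottom). Each panel has 1 point per library in the 4 groups and the mean with SD beside the points. In each panel every Vdr-cKO library lies above every control library of the same surgery, as for Mmp2, where MCAO controls lie between 61.3 and 62.5 CPM and the lowest MCAO Vdr-cKO library at 96.3 CPM.

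Interferon genes rose in both surgeries for a minority of their list and more after MCAO. Of 54 interferon-stimulated effectors tested, 52 were called higher by the mean contrast and 0 lower, but 9 moved in both. Over all genes 2.72% were called higher, 0.877% lower, and 0.698% moved in both on the higher side. The median log2 fold change of the 54 was 2.01 after MCAO and 0.24 after sham. The 9 were Sp100, a nuclear body protein, Rtp4 and Ifi27l2a, Dhx58, which regulates RNA sensing by RIG-I-like helicases, Lgals3bp, Lgals9, Oas1a, which makes 2-5A for RNase L, Trim30a, and Eif2ak2, the kinase PKR. Irf7, the master factor of type I interferon induction, was the 1 of 17 interferon regulators that moved in both. H2-Q4, a non-classical MHC class I molecule, and Psme1, a proteasome activator subunit, were the 2 of 20 genes of MHC class I and peptide supply that did so, where 17 were called higher by the mean contrast.

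Irf7 had 91.1, 79, 79.1 and 61.9 CPM in MCAO control and 1140.2, 801, 526 and 572 CPM in MCAO Vdr-cKO libraries. After sham it had 14, 14.3, 10.5, 11.8 and 11.2 CPM in control and 20.3, 16.7 and 16.1 CPM in Vdr-cKO libraries. The genotypes were apart in both surgeries, but by a small step after sham. The log2 fold change was 3.29 after MCAO and 0.52 after sham, and their difference was 2.77 (adjusted p = 4.96e-05, edgeR). Irf7 no longer counted as moved in both when replicate 3 or 5 of sham control or replicate 1 of sham Vdr-cKO was left out.

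Lgals3bp, a secreted glycoprotein that binds galectin-3, was measured at 613, 824, 878 and 788 CPM in MCAO control and 1538, 1890.3, 2203 and 2433 CPM in MCAO Vdr-cKO libraries. In sham libraries the level was 210.1, 214, 190.3, 215 and 187 CPM in control and 322, 298 and 254 CPM in Vdr-cKO. It was therefore higher in every Vdr-cKO library, by 1.38 and 0.52 on the log2 scale (mean adjusted p = 5.81e-06, edgeR). Sp100 showed 33.9, 39.3, 34.9, 31.7 and 30.6 CPM in sham control and 47.6, 49.5 and 43.5 CPM in sham Vdr-cKO libraries, and its MCAO means were 139 ± 7.01 (SD, n = 4) and 422 ± 104 CPM (SD, n = 4). Oas1a went from 9.91, 11.5, 9.54, 11.3 and 8.46 CPM in sham control to 14.2, 12.5 and 13.2 CPM in sham Vdr-cKO, beside MCAO means of 68.3 ± 4.88 and 236 ± 64.7 CPM (SD, n = 4 each). Libraries of the genotypes did not overlap in either surgery for Sp100, Oas1a, Ifi27l2a, Lgals3bp and Lgals9, 5 of the 9. On the higher side this held for 0.542% of all genes tested.

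The change after MCAO was larger than that after sham for all 9 effectors, and the difference passed its own test for 8 of them, the exception being Lgals9 (adjusted p = 0.0750, edgeR). Ifi27l2a changed by 2.14 and 0.74, Dhx58 by 1.63 and 0.35, Rtp4 by 1.86 and 0.37, and H2-Q4 by 1.55 and 0.41 on the log2 scale after MCAO and sham. H2-Q4 has close relatives in the MHC region, and how reads were split between them is not given in the sources. Ly6e and Trim34a, 2 further genes known to respond to interferon and named here after their values were seen, changed by 1.21 and 0.24 and by 1.42 and 0.32.

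The interferon count moved with the libraries used. The 9 became 4 when sham control replicate 5 or replicate 1 of sham Vdr-cKO was left out, 15 with no filter on low counts, 14 with each surgery fitted alone, 17 without MCAO Vdr-cKO replicate 1, 24 without MCAO Vdr-cKO replicates 1 and 2, and 5 without sham control replicates 2, 4 and 5. Ly6c2, a monocyte marker that interferon also induces, was 35.2, 18.1, 22.2 and 19.1 CPM in MCAO control and 359, 454, 146 and 184 CPM in MCAO Vdr-cKO libraries, while in sham libraries it ran from 5.26 to 17.1 CPM. The summed level of the 14 monocyte markers ranged from 3471 to 4848 CPM in MCAO control and 2266 to 5632 CPM in MCAO Vdr-cKO, and from 303 to 482 and 327 to 376 CPM in the sham groups, and 0 of the 14 moved in both. By the mean contrast 3 of the 14 were called higher, Ly6c2, Ms4a4c and Plac8, and F13a1 lower, or 21.4% against 2.72% of all genes on the higher side. The median log2 fold change of the 14 after MCAO was 0.71, with 11 above 0, and Plac8 averaged 33.9 ± 7.05 CPM in MCAO control and 216 ± 128 CPM in MCAO Vdr-cKO libraries (SD, n = 4 each), without overlap. Their part in the interferon result was not tested. In bulk samples fewer cells of a type and less RNA per cell cannot be told apart.

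The core of the interferon-stimulated response element, GAAA, 2 bases of any kind and GAAA on either strand, occurred in the windows of 60.5% of the 43 interferon effectors with a window, in 12.2% of the higher and 4.08% of the lower genes moved in both, and in 3.9% of all genes with a window. Among the 9 higher genes of the interferon and MHC class I lists that have a window, 55.6% held it. It also lay before the start in other genes moved in both, among them Lgals9, Psmd4, Gstt1 and Trim30a on the higher and Asgr2 and Selenop on the lower side. As examples before the start it is shown in capitals, with flanks, in the windows of Oas1a (chr5:120907476-120907775, minus strand), where 2 matches overlap, of Tgtp1 (chr11:48992197-48992496, minus strand), an interferon-induced GTPase, and of Tnfsf13b (chr8:10006383-10006682, plus strand), the B cell survival factor BAFF.
Oas1a: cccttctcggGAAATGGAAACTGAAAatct
Tgtp1: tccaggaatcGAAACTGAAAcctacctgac
Tnfsf13b: tacaaaaactGAAAGTGAAAtgcggaaggc
Vitamin D receptor sites are direct repeats of 6 bases with 3 between the copies. Here the first base of each copy was left free, so that the search was for a pair of GNTCA in the same direction with 4 free bases between. It was in 0% of the higher and 2.04% of the lower genes with a window, against 0.608% of all, and the 1 lower gene was Cx3cr1. The cell cycle homology region TTTGAA was in 14.4%, 16.3% and 14.9%. No match says only that these letters are not in the window.

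**Figure D3:**
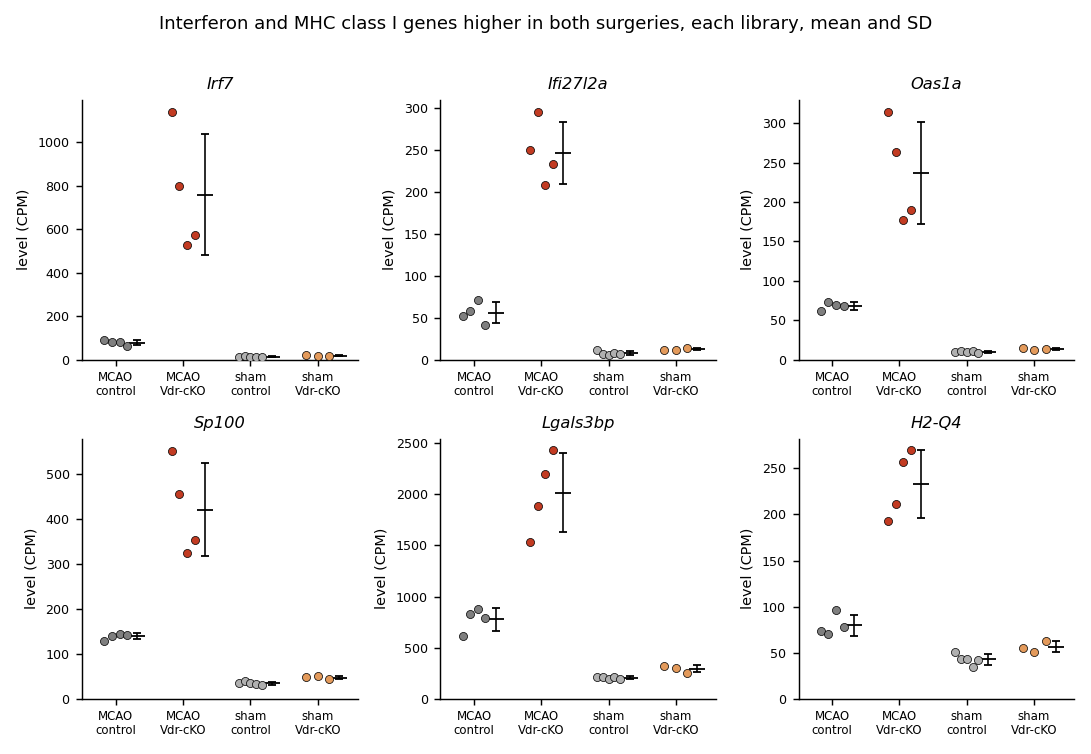
Level in CPM (y axis, from 0) of 5 interferon genes and the MHC class I gene H2-Q4, with 1 point per library in the 4 groups and the mean with SD beside them. Vdr-cKO libraries lie above controls in both surgeries, by a wide margin after MCAO and by a narrow one after sham, as for Irf7 with sham controls up to 14.3 CPM and sham Vdr-cKO libraries from 16.1 CPM.

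Cd40 was the 1 of 12 genes of MHC class II and costimulation that moved in both, and Cd52 the 1 of 30 of disease-associated microglia. On the higher side 0.698% of all genes moved in both. Cd40, the costimulatory receptor for CD40 ligand, went from 5.17 ± 0.555 to 14.5 ± 7.41 CPM after MCAO (SD, n = 4 each) and from 1.62 ± 0.404 (SD, n = 5) to 2.76 ± 0.359 CPM (SD, n = 3) after sham. Its mean log2 fold change was 1.12 ± 0.21 (SE, adjusted p = 0.00322, edgeR). Cd52, a small glycoprotein anchored in the leukocyte membrane, changed by 0.66 (adjusted p = 0.00336, edgeR). Tnfsf8, the ligand of CD30, and Tnfsf13b changed by 1.34 and 0.55, and the receptors Il7r and Pdcd1 by 0.56 and 0.75, all as mean log2 fold changes. These 4 were named after their values were seen. The markers of T and NK cells had a higher sum in every MCAO Vdr-cKO library, 7.61 to 29.6 CPM, than in the MCAO controls, 3.7 to 7.32 CPM. Of the 6 tested 0 were called by the mean contrast, where 3.59% of all genes were. After sham the sums overlapped, at 10.7 to 13.6 CPM in control and 9.18 to 12.1 CPM in Vdr-cKO libraries. Their part in these changes was not tested. In the 16 fits that left out 1 library, Il7r no longer counted as moved in both in 11, Pdcd1 and Cd52 in 6 each, Cd40 in 2, and Tnfsf8 and Tnfsf13b in 0.

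Xcr1, the receptor of the chemokine XCL1 and a mark of cross-presenting dendritic cells, was 0.331, 0.260, 0.493 and 0.331 CPM in MCAO control and 3.21, 2.05, 2.55 and 2.0 CPM in MCAO Vdr-cKO libraries. After sham it was 0.597, 0.357, 0.395, 0.360 and 0.191 CPM in control and 1.18, 0.997 and 0.358 CPM in Vdr-cKO libraries. The MCAO groups were apart, and sham Vdr-cKO replicate 3 lay within the range of sham controls. The mean log2 fold change was 1.95 ± 0.29 (SE, adjusted p = 3.70e-04, edgeR), and the gene no longer counted as moved in both without sham Vdr-cKO replicate 1 or 2. The summed level of the 12 dendritic cell markers was 1131 to 1332 CPM in MCAO control, 1450.4 to 1647 CPM in MCAO Vdr-cKO, 2069.7 to 2493 CPM in sham control and 2149.9 to 2168 CPM in sham Vdr-cKO libraries, and its part in this result was not tested.

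Several of the largest changes were in rare or noncoding transcripts. Gm42047, a long intergenic noncoding RNA in GENCODE M21, was 201, 81.7, 241 and 149.8 CPM in MCAO control and 409, 402, 399 and 377 CPM in MCAO Vdr-cKO libraries. Its sham level was 23.7, 21.9, 24.6, 29 and 18 CPM in control and 241, 391 and 156 CPM in Vdr-cKO. The genotypes were apart in both surgeries, and Gm42047 was the 1 higher gene whose change differed between the surgeries and was larger after sham, with 3.49 against 1.24 (difference -2.25, adjusted p = 0.00216, edgeR). D630023F18Rik had 1.61, 3.2, 3.15 and 4.21 CPM in MCAO Vdr-cKO and 1.3, 1.58 and 0.536 CPM in sham Vdr-cKO libraries, above 0.727, 0.390, 0.775 and 0.464 CPM in MCAO control and 0, 0, 0.329, 0.120 and 0 CPM in sham control libraries.

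Further genes with large mean log2 fold changes and separated libraries were Etv4, a transcription factor of the ETS family, at 1.48, Chic1 at 1.35, the defensin gene Defb11 at 1.37 and the antisense RNA Snhg7os at 1.62. Defb11 counted as moved in both in 10 of the 16 fits that left out 1 library, and the other 3 in 16. Gstp3 had 0 counts in every sham control library and Bhmt2, a methyltransferase of homocysteine, 3 counts over the MCAO control libraries, so their fitted changes depend on the prior count and are not given, and Bhmt2 counted as moved in both in 3 of those 16 fits. Without a stated strand setting, reads of Snhg7os cannot be told from those of the overlapping gene.

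Of 31 genes of DNA replication 10 were called higher by the mean contrast, 32.3% against 2.72% of all genes, and 1 moved in both, against 0.698% of all genes. Cdt1, a licensing factor of replication, was the gene that did so, with 0.39 after MCAO and 0.65 after sham (mean adjusted p = 0.00146, edgeR). The 10 became 1 in the additive model, 6 without MCAO control replicate 4, 5 without replicate 1 or 2 of sham Vdr-cKO or without MCAO Vdr-cKO replicates 1 and 2, and 6 without sham control replicates 2, 4 and 5. The 1 became 3 with the replicate number as a block, 4 without MCAO control replicate 1 and 0 without MCAO Vdr-cKO replicates 1 and 2. Of 32 mitosis genes 16 were called higher by the mean contrast, 50% against 2.72% of all genes, and 0 moved in both, where 1.05% of all genes did. Their median log2 fold change was -0.32 after MCAO and 1.48 after sham, with 3 and 32 of them above 0. For 26 of the 32 the change differed between the surgeries, as it did for 2.55% of all genes. The 16 became 0 in the additive model, 5 with limma-voom, 5 and 6 when replicates 1 and 2 of sham Vdr-cKO were left out in turn, 25 without MCAO control replicate 1, 10 without MCAO control replicate 2 or 4, 9 without MCAO Vdr-cKO replicates 1 and 2, and 5 without sham control replicates 2, 4 and 5.

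Cx3cr1, the receptor for the neuronal chemokine fractalkine and the locus that carries CreER in Vdr-cKO mice, was lower in every Vdr-cKO library. It lies on chromosome 9 from 119901616 to 120069879 (ENSMUSG00000052336). Its level was 2207, 2273, 2279.7 and 2166 CPM in MCAO control and 827, 822, 960.3 and 1049 CPM in MCAO Vdr-cKO libraries. After sham surgery the values were 4580.1, 4801, 4919, 5389 and 4884 CPM in control and 2217, 1435 and 3109 CPM in Vdr-cKO libraries. Sham Vdr-cKO replicates 2 and 3 thus differed by more than all sham controls did. The log2 fold change was -1.29 after MCAO and -1.12 after sham, a mean of -1.21 ± 0.12 (SE, adjusted p = 4.75e-06, edgeR). The change after MCAO minus that after sham was -0.16 (adjusted p = 0.804, edgeR).

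Genes near the CreER locus were looked at because an allele is inherited with its neighbours. Of 109 genes tested within 5 Mb of Cx3cr1 on chromosome 9, 6 were called higher and 3 lower by the mean contrast, or 5.5% and 2.75%, against 2.72% and 0.877% of all genes. Moved in both were Xirp1, Fyco1 and Xcr1, all higher, where 0.698% of all genes moved in both on this side. Within 20 Mb, 10 of 295 genes were called higher and 5 lower, 3.39% and 1.69%, and 5 moved in both, all higher. Xirp1, an actin-binding protein of muscle, lies inside the annotated span of Cx3cr1, so that reads of the overlap are uncertain, and its mean log2 fold change was 0.85 (adjusted p = 0.0176, edgeR). Fyco1, an adaptor of vesicle transport, and Xcr1 are neighbours 3.72 and 3.78 Mb away. Within 20 Mb of Vdr on chromosome 15, 9 of 345 genes were called higher and 3 lower, 2.61% and 0.870%, near the shares of all genes.

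Genes lower in both surgeries included transporters, receptors and 2 of the 12 genes listed as markers of macrophages at the borders of the brain. Abca1, the transporter that moves cholesterol out of cells, was 1512, 1907, 1918 and 2146 CPM in MCAO control and 1277, 1072, 1119.6 and 1095 CPM in MCAO Vdr-cKO libraries. Its sham level was 658, 701, 797, 777 and 656 CPM in control and 532, 565 and 598 CPM in Vdr-cKO libraries. Vdr-cKO libraries were lower without overlap in both surgeries, with a mean log2 fold change of -0.53 ± 0.074 (SE, adjusted p = 2.55e-04, edgeR). Selenop, the selenium carrier protein, averaged 1986 ± 298 and 1062 ± 119.6 CPM in MCAO control and Vdr-cKO libraries (SD, n = 4 each). Its sham libraries lay closer, at 1501, 1591, 1651, 1735 and 1444 CPM in control and 1386, 1301 and 1304 CPM in Vdr-cKO. The changes of Selenop, -0.90 after MCAO and -0.25 after sham, differed (adjusted p = 0.0260, edgeR), the single such case among the 61, and the gene no longer counted as moved in both when replicate 2, 3 or 4 of sham control or replicate 2 or 3 of sham Vdr-cKO was left out.

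Mrc1, the mannose receptor, was 371, 347, 342 and 379.9 CPM in MCAO control and 219, 239, 210.3 and 209 CPM in MCAO Vdr-cKO libraries. In the sham groups it was 313, 395, 384, 407 and 346 CPM in control and 308, 345 and 275 CPM in Vdr-cKO libraries, which overlapped. Its mean log2 fold change was -0.49 ± 0.065 (SE, adjusted p = 1.57e-04, edgeR), and that of Pf4, a chemokine of platelets and border macrophages, was -0.53 ± 0.11 (SE, adjusted p = 0.00917, edgeR). Both belong to the 12 border macrophage markers, of which 4 were called lower and 1 higher by the mean contrast, the others being F13a1 and Stab1 on the lower and Siglec1 on the higher side. Over all genes 0.877% were called lower and 2.72% higher. Of the 12, 5 had a log2 fold change above 0 after MCAO and 3 after sham. The summed level of the 12 was 4969.7, 5713, 5348 and 6044 CPM in MCAO control and 5005, 4404, 4329 and 4000.3 CPM in MCAO Vdr-cKO libraries. After sham it was 3451, 3729, 3099, 3942 and 3375 CPM in control and 2909.7, 3104 and 3393 CPM in Vdr-cKO libraries. The groups overlapped, and the mean of the genotype differences within surgery had p = 0.00408 (2-sided exact permutation test, 0.0449 adjusted over the 11 sums). In MCAO control the sum averaged 5519 CPM, of which Mrc1, Pf4, Cd163 and Lyve1 gave 360, 289, 38.5 and 16.5 CPM. Cd163 and Lyve1 had mean log2 fold changes of -0.09 and -0.06 (adjusted p = 0.784 and 0.895, edgeR). Cd163 averaged 44.8 CPM in MCAO Vdr-cKO libraries, and 121 and 92.5 CPM in sham control and Vdr-cKO. For Lyve1 these means were 19.6, 49.4 and 38.3 CPM, and for Pf4 210, 30.8 and 20.4 CPM. In control libraries Pf4 was thus higher after MCAO than after sham, while Cd163 and Lyve1 were lower. Whether the share of border macrophages differed was not tested. Of the 4 lower calls 1 was left without sham control replicates 2, 4 and 5, and of the 2 markers moved in both 0, and Mrc1 no longer counted without sham Vdr-cKO replicate 3.

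Gpr165, an orphan G protein-coupled receptor, was 16, 22.5, 21.2 and 19.4 CPM in MCAO control and 7.41, 13.8, 12.3 and 14 CPM in MCAO Vdr-cKO libraries. After sham it was 109, 114, 157, 151 and 117 CPM in control and 86.5, 58.5 and 71.8 CPM in Vdr-cKO libraries. The genotypes did not overlap in either surgery, and the mean log2 fold change was -0.79 ± 0.13 (SE, adjusted p = 0.00115, edgeR). Mt2, a metallothionein that binds zinc and copper, had a fitted mean log2 fold change of -2.04 (adjusted p = 0.00901, edgeR), which depends on the prior count, since the sham Vdr-cKO libraries held 2 counts in all. Its levels were 0.776, 0.476, 0.197, 0.300 and 0.255 CPM in sham control and 0.124, 0 and 0 CPM in sham Vdr-cKO libraries. After MCAO Mt2 was 6.41, 4.56, 7.46 and 5.63 CPM in control and 4.26, 2.63, 3.32 and 1.94 CPM in Vdr-cKO, a log2 fold change of -0.98, and the genotypes did not overlap.

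Of the remaining lower genes with separated libraries, Unc79, a subunit of the NALCN sodium leak channel, changed by -0.94, Asgr2, a subunit of the asialoglycoprotein receptor, by -0.85, Fgf11 by -0.58, the imprinted gene Peg10 by -0.56, Plppr3 by -0.53, Ikzf2, which encodes the transcription factor Helios, by -0.48, Rassf4 by -0.43 and Kctd12, an auxiliary subunit of GABA-B receptors, by -0.36 on the log2 scale. Phtf1os, Rpl10-ps3 and Ppp1ccb changed by -1.50, -0.98 and -0.51, but share sequence with an opposite strand or a parent gene, and their counts are uncertain. The sphingosine phosphate receptor S1pr1 changed by -0.32 (adjusted p = 0.0283, edgeR), and was named after its value was seen.

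Of 28 homeostatic microglial genes 2 moved in both, Cx3cr1 and Fcrls, an Fc receptor-like molecule of mouse microglia, and both were lower. On the lower side 0.352% of all genes moved in both. Fcrls averaged 2449 ± 154 and 1949 ± 160.2 CPM after MCAO (SD, n = 4 each), and 1947 ± 156 (SD, n = 5) and 1688 ± 157 CPM (SD, n = 3) after sham, a mean log2 fold change of -0.27 (adjusted p = 0.0267, edgeR). The purine receptor gene P2ry12 changed by -0.04 (adjusted p = 0.912, edgeR) and Tmem119 by 0.28 (adjusted p = 0.119, edgeR). Fcrls counted as moved in both in 8 of the 16 fits that left out 1 library. Of 30 genes of disease-associated microglia 3 were called higher, Cd52, Axl and B2m, and 1 of these, Cd52, moved in both. The shares of all genes on the higher side were 2.72% called and 0.698% moved in both. Of 27 cytokines and chemokines 7 were called higher, 25.9% against 2.72% of all genes, and 0 moved in both, where 1.05% of all genes did. Of 13 genes of vitamin D and retinoid X receptor signalling 0 were called in either direction, where 3.59% of all genes were.

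**Figure D4:**
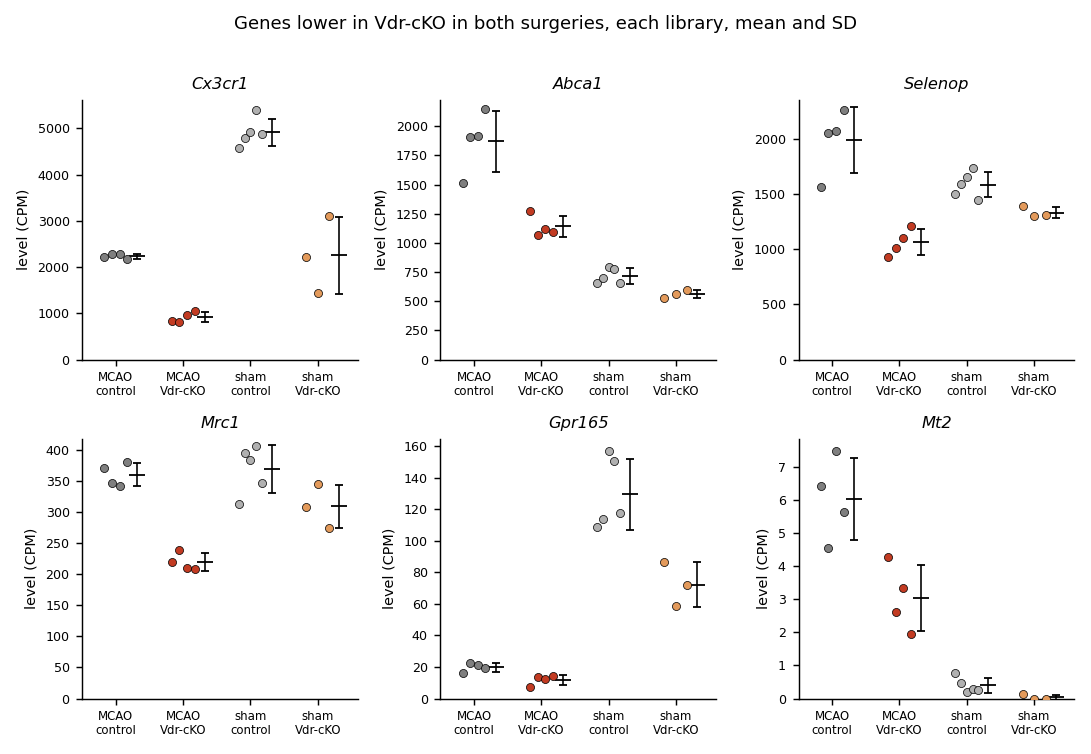
Level in CPM (y axis, from 0) of 6 genes lower in Vdr-cKO in both surgeries, with 1 point per library in the 4 groups and the mean with SD beside them. Cx3cr1, Abca1, Gpr165, Selenop and Mt2 show no overlap of the genotypes within a surgery, while for Mrc1 the sham groups overlap, with controls from 313 CPM and Vdr-cKO libraries up to 345 CPM.

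**Figure D5:**
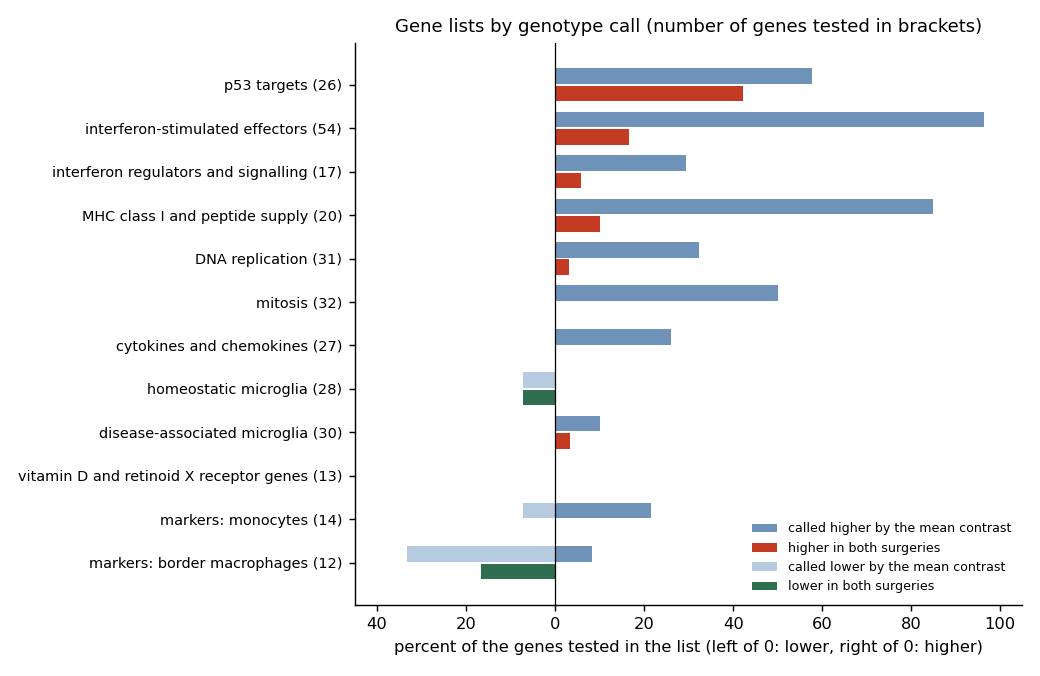
Percent of the genes tested in each of 12 gene lists (x axis) that were called by the mean contrast or moved in both surgeries, with higher to the right and lower to the left of 0 and the number of genes tested after each name. For the p53 targets 11 of the 15 called genes moved in both, while for interferon-stimulated effectors 9 of 52 and for mitosis 0 of 16 did. Of all genes called higher, 121 of 471 moved in both.

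Membership was checked gene by gene over 27 alternatives, of which 16 each left out 1 library. A log2 fold change above 1 was not among them. Of the 121 higher genes, 41 were found again in every fit that left out 1 library and 27 in every alternative, and of the 61 lower genes 15 and 10. The 27 held Inka2, Epha2, Mmp2, the p53 targets Cdkn1a, Phlda3, Sesn2, Rps27l and Ephx1, the interferon genes Sp100, Lgals3bp and Lgals9, and, named after their values were seen, Trpm2, a calcium channel opened by oxidative stress, Ptk2b, a focal adhesion kinase, Sdc3, a heparan sulfate proteoglycan, Capg, an actin-capping protein, and Masp1, a protease of the lectin pathway of complement. The 10 lower genes were Cx3cr1, Abca1, Gpr165, Peg10, Rassf4, Plppr3, Ppp1ccb, Sema6d, Raph1 and Plekhg5.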

How the data were processed

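RNA-sequencing counts per gene of 16 libraries were used as the authors deposited them, as whole numbers without normalization. For the steps before counting, the submitters' processing notes list HISAT2 2.1.0 and TopHat, bcl2fastq, limma and, as the build, GRCm38. What counted the reads, on which annotation and with what strand setting, is not given in the sources used here. Positions are from GENCODE M21, matched for 17261 of the 17335 genes tested.

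Genes were filtered with filterByExpr, libraries scaled by TMM, and all 4 groups fitted together with edgeR's quasi-likelihood test (R 4.3.3, edgeR 4.0.16). Adjusted p-values follow Benjamini and Hochberg, over all genes tested. "Rose" and "fell" mean an adjusted p under 0.05 for the mean contrast, in which each surgery weighs equally. Marker levels were compared with exact permutation tests within surgery. With 4 against 4 libraries these cannot go below 0.0286, and with 5 against 3 not below 0.0179.

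Named by rule were Vdr, Cx3cr1, up to 15 genes in each direction with the largest mean change among those moved in both whose libraries did not overlap, the 5 in each direction with the smallest larger p, for each list up to 3 genes by adjusted p of the mean contrast, and 3 genes on either side of its threshold. All other genes, those next to the threshold of the larger p among them, were named by role or place after their values were seen. The members, the 32 gene lists and the rules were chosen with earlier results of these data known.

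The fit was tested on simulated data for the mean contrast over 16964 genes. Changes were planted only in genes above a floor of mean counts, so the shares found do not cover rare genes such as Eda2r. Of genes changed in both surgeries by 1 on the log2 scale, 96% were called and 96% counted as moved in both. At 0.5 these were 56% and 52%. Of genes changed after MCAO alone by 1, 4% counted as moved in both. False calls were 5.7% of calls.

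Alternatives were RLE and upper quartile factors, a minimum of 10 counts in each library or no filter, DESeq2 1.42.0, limma-voom (limma 3.58.1), an additive model, each surgery alone, the replicate number as a block, a log2 fold change above 1, each library left out, and 2 sets of libraries left out. List counts under these alternatives, except a log2 fold change above 1, and the p53 motif were added after the data were seen. Promoter windows are from RefSeq on GRCm38.p6.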

Additional observations from a re-analysis of the deposited data

Results flagged for a closer look

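In each group of 4 or 5 libraries the highest and the lowest level of a named gene was compared with its nearest neighbour and the range of the group. Over 186 groups of 62 genes, 10 values lay apart, where chance gives about 1 in 20. After MCAO these were Matn1 at 3.84 CPM in Vdr-cKO replicate 1, below the other Vdr-cKO libraries, and at 1.45 CPM in control replicate 1, above the other controls. Eda2r was 0.325 CPM in control replicate 2, above the others, and Sesn2 42.1 CPM in control replicate 1, above the others. Bhmt2 was 0 CPM in control replicate 3, Rassf4 220.1 CPM in control replicate 1 and Psme1 171 CPM in Vdr-cKO replicate 3, each below the others of its group. After sham, control replicate 1 was above the other controls for Phlda3, at 4.90 CPM, and for Cd40, at 2.33 CPM, and control replicate 3 for Rpl10-ps3, at 5.26 CPM. Both Phlda3 and Cd40 kept their groups apart with these values in.

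The genotype change differed between the surgeries for 13 named genes moved in both (edgeR's quasi-likelihood test of the difference, adjusted p under 0.05). The change after MCAO minus that after sham was 2.77 on the log2 scale for Irf7, 1.49 for Rtp4, 1.41 for Oas1a, 1.40 for Ifi27l2a, 1.28 for Dhx58, 1.14 for H2-Q4, 1.14 for Sp100, 0.86 for Lgals3bp, 0.86 for Trim30a, 0.72 for Eif2ak2 and 0.64 for Psme1, so that these rose more after MCAO. It was -2.25 for Gm42047, which rose more after sham, and -0.65 for Selenop, which fell more after MCAO.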

How the results depend on the processing

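Counts are given as higher and lower. The 471 and 152 genes called by the mean contrast became 252 and 69 in the additive model and 107 and 7 above a log2 fold change of 1, and the 152 became 324 with DESeq2 and 85 without sham control replicates 2, 4 and 5. Leaving out 1 library gave 287 to 662 higher and 78 to 222 lower. The 121 and 61 genes moved in both became 31 and 3 above a log2 fold change of 1, and the 61 became 92 with DESeq2 and 28 without sham control replicates 2, 4 and 5. Leaving out 1 library gave 60 to 219 and 29 to 87. The 4 higher genes past the larger p became 2 with upper quartile factors, 12 with DESeq2 and 1 without sham control replicates 2, 4 and 5, and 2 to 5 without 1 library. The 1 lower gene became 0 with each surgery fitted alone and without MCAO Vdr-cKO replicates 1 and 2 or sham control replicates 2, 4 and 5, and 0 to 1 without 1 library. The log2 fold change of Vdr, 0.43, turned to -0.18 without MCAO Vdr-cKO replicates 1 and 2 and to -0.066 without sham control replicates 2, 4 and 5, and passed no threshold in either. The cause of these shifts was not tested. With low counts, as for Vdr, Eda2r and Bhmt2, depth limits the precision. Replicate numbers do not pair the samples: over 7 pairs the correlation of same-numbered libraries ran from -0.38 to 0.36, and 1 library correlated best with its own number. With the replicate number as a block, 348 and 91 genes were called and 82 and 31 moved in both.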
